A study of Homo sapiens with 120 samples.

Results

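The HSP70 genes described here are 10 members of the human HSPA family, found by symbol among the 57665 genes of the deposited tables: HSPA1A, HSPA1B, HSPA1L, HSPA2, HSPA4, HSPA6, HSPA8, HSPA9, HSPA13 and HSPA14. Each had 1 row, and all 10 passed the filter on low counts that left 26998 genes to test. HSPA1A and HSPA1B code for near-identical proteins, so the split of reads between them is uncertain and their summed counts are the value the account rests on. RNA was sequenced from U2OS cells, a human osteosarcoma line, either stably expressing Dmr-PERK (the kinase domain of mouse PERK, which phosphorylates eIF2α, fused to the DmrB domain) or in the Parental form without the construct, labelled WT. Cells of each line received the ligand AP20187 (the dimerizer, about 0.2 nM), thapsigargin (100 nM) or sodium arsenite (0.05 mM), or were left untreated. AP20187 brings DmrB domains together, thapsigargin blocks the calcium pump of the endoplasmic reticulum (ER) and arsenite causes oxidative stress. Wells with a treatment were harvested after 2, 4, 8, 16 and 24 h, those without one at 0, 4, 8, 16 and 24 h, with 3 wells in each of the 40 groups (120 libraries). The labels do not say whether the Dmr-PERK line is 1 clone.

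HSP70 proteins bind short hydrophobic stretches of unfolded proteins and release them in a cycle driven by ATP. J proteins deliver the client and stimulate ATP hydrolysis, and exchange factors remove ADP so that the client is let go. In human cells HSPA8 is the constitutive cytosolic member, HSPA1A, HSPA1B and HSPA6 are the classical heat shock-inducible members, and HSPA9 (mortalin) works in the mitochondrial matrix. HSPA1L and HSPA2 are best known from the testis, HSPA4 is an exchange factor of the HSP110 type, and HSPA14 works beside the ribosome. HSPA13 is known as a protein of microsomes, so its place among cytosolic and mitochondrial members rests on the naming of the set alone. Inducible members are transcribed under heat shock factor 1 (HSF1), whose binding element is built of alternating GAA and TTC units.

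The promoter stretches of the members whose levels moved most with arsenite, and that of the constitutive HSPA8, are shown because they hold inverted GAA and TTC units within 250 bases before the gene start given by RefSeq (GRCh38.p14). Capitals mark matches to GAANNTTC, to TTCNNGAA or to both where they overlap in a run of 3 units, on the gene's own strand. The stretches are chr6:31815373-31815462 on the plus strand for HSPA1A, chr6:31827568-31827657 on the plus strand for HSPA1B, chr1:161524350-161524509 on the plus strand for HSPA6 and chr11:123062167-123062386 on the minus strand for HSPA8.
HSPA1A: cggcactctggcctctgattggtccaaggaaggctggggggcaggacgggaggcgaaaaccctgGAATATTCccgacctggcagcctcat
HSPA1B: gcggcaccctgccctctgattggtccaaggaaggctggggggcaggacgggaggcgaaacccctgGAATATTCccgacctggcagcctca
HSPA6: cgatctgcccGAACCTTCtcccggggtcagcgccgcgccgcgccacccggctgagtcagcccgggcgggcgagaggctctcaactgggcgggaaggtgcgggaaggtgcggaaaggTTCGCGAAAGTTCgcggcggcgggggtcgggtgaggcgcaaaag
HSPA8: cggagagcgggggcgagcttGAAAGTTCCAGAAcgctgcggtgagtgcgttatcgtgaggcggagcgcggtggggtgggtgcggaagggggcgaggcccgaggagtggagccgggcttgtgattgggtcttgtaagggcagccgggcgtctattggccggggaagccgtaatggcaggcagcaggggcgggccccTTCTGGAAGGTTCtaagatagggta
HSPA1A and HSPA1B carried the same 8 bases, beginning 106 and 105 bases before the start, and their windows were identical at 277 of 299 compared bases (92.6%). The match of HSPA1A lies on the same bases as a match 161 bases before the start of HSPA1L, a neighbour read from the opposite strand. The run of 3 units began 74 bases before the start in HSPA6, and HSPA8 held a pair of such runs that began 230 and 55 bases before it. Both motifs read the same on either strand. Of 35116 promoter windows of the same length, 13.5% held a match to either 8-base form and 0.49% held a run of 3 units. HSPA9 had a single TTCNNGAA that began 4 bases before its start. No match lay in the windows of HSPA2, HSPA4 and HSPA13, and HSPA14 had none to read.

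By GENCODE 29 on GRCh38, HSPA1A (ENSG00000204389.9) lies on chromosome 6 from 31815464 to 31817946 and HSPA1B (ENSG00000204388.6) from 31827735 to 31830255, both on the plus strand. HSPA1L (ENSG00000204390.9) lies between 31809619 and 31815065 on the minus strand of the same chromosome, so its start faces that of HSPA1A. HSPA6 (ENSG00000173110.7) lies on chromosome 1 from 161524540 to 161526910 and HSPA2 (ENSG00000126803.9) on chromosome 14 from 64535905 to 64546173, both on the plus strand. HSPA8 (ENSG00000109971.13) lies on chromosome 11 from 123057489 to 123063230 and HSPA13 (ENSG00000155304.5) on chromosome 21 from 14371115 to 14383484, both on the minus strand. RefSeq and GENCODE do not share gene starts, and the HSPA8 stretch printed above falls inside its GENCODE bounds. The stretches of HSPA1A, HSPA1B and HSPA6 end before their GENCODE starts. HSPA4 (ENSG00000170606.13) and HSPA9 (ENSG00000113013.12) are on chromosome 5 and HSPA14 (ENSG00000187522.14) is on chromosome 10, with no position given here because the identifier versions of the files and the annotation differ. These are whole genes with their exons and introns, and the values below are sums over the transcripts of each.

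Library totals ran from 1.29e+07 to 5.65e+07 estimated counts with a median of 2.23e+07. Replicates correlated at 0.9966 to 0.9993 on the log2 CPM scale, apart from Parental arsenite 24 h replicate 3. That library fell under 0.99 with both other libraries of its group. It enters the Parental arsenite means and 24 h values below, and only some of these are also given without it. Counts of EIF2AK3, which codes for PERK, ran from 409 to 1323 CPM (counts scaled to library size by TMM) across Dmr-PERK libraries and from 19.8 to 171.5 CPM across Parental libraries. Of 5 mesenchymal or osteosarcoma markers, VIM, SPARC, COL1A1 and RUNX2 were present in every library, while the median of COL1A2 was 0.521 CPM in Dmr-PERK and 0.85 CPM in Parental cells. Of 5 markers of other cell types, the leukocyte gene PTPRC stayed at or under 1.67 CPM and the T cell gene CD3E had a median of 0 in both lines. The endothelial gene PECAM1 reached 3.85 CPM, and the epithelial genes EPCAM and CDH1 reached 5.40 and 12.9 CPM. Nothing says that the 3 wells of a group were separate cultures, so a p-value speaks of the spread between the wells sequenced, and that spread may be technical. A bulk library gives the share of a gene in the RNA of all cells of a well, so fewer cells of one state and less RNA per cell cannot be told apart.

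In untreated cells the order of the members per transcript length (TPM, transcript abundance scaled to a common library total) was the same in both lines by medians. The lowest, median and highest TPM over the 15 untreated libraries of each line were 776, 1304 and 1873 for HSPA8 in Dmr-PERK cells and 891, 1272 and 1894 in Parental cells. HSPA4 followed at a median of 380.0 TPM in Dmr-PERK and 354 TPM in Parental cells. HSPA9 had medians of 156 TPM in Dmr-PERK and 159 TPM in Parental cells. HSPA8 stood clear of every other member in these libraries. HSPA1A had 50.7, 136 and 240.4 TPM in Dmr-PERK cells and 52.9, 132 and 235 TPM in Parental cells, a range over all times that spanned the medians of HSPA9, HSPA1B and HSPA14. HSPA1A was above HSPA1B in 15 of 15 untreated libraries of each line, and so was HSPA9. HSPA9 was above HSPA1A, and HSPA1A and HSPA1B were above HSPA14, in 9 of 15 libraries of each line, so these pairs had no fixed order over the untreated wells. HSPA14 had medians of 68.9 TPM in Dmr-PERK and 70.4 TPM in Parental cells, and HSPA13 of 37.2 TPM in Dmr-PERK and 41.8 TPM in Parental cells. HSPA1L, HSPA6 and HSPA2 were close to absent, at medians of 1.68, 0.926 and 0.122 TPM in Dmr-PERK cells and 1.67, 0.388 and 0.242 TPM in Parental cells. The deposited TPM table has a floor of 0.0631.

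Untreated wells were not level over time. HSPA1A+HSPA1B had 155, 147 and 137 CPM at 0 h, 143 CPM on average at 4 h and 589.8, 594 and 605 CPM at 8 h in Dmr-PERK cells. In Parental cells the sum had 173, 154 and 151 CPM at 0 h, a mean of 147 CPM at 4 h and 628, 612 and 627 CPM at 8 h. Untreated libraries at 8 h were therefore the highest of the untreated groups for this sum, together with 24 h, and this level stands under every comparison at those times. Untreated cells at 24 h were set against untreated cells at 0 h, and the sum was higher by 1.97 ± 0.087 (adjusted p = 4.3e-37) on the log2 scale in Dmr-PERK cells and by 1.67 ± 0.086 (adjusted p = 2.7e-32) in Parental cells. Here as below, the ± beside a log2 value is an approximate standard error, and a gene is called where the Benjamini-Hochberg adjusted p of edgeR's quasi-likelihood test over all tested genes is under 0.05. In that comparison 7 of 10 members were called in each line, against 30.8% of all genes tested in Dmr-PERK and 32.4% in Parental cells. HSPA8 and HSPA4 were higher and HSPA14 was lower in both lines, and HSPA9 was called in neither.

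Arsenite was compared with untreated cells to see how the members respond to an agent that causes oxidative stress and also damages proteins. Averaged over 4 to 24 h, all 10 members were called higher with arsenite in Dmr-PERK cells and 9 of 10 in Parental cells, and none was called lower. Of all genes tested, 44.2% were called higher and 39.2% lower in Dmr-PERK cells, and 42.4% higher and 39.4% lower in Parental cells. The median log2 fold change of the 10 members was 1.64 in Dmr-PERK and 1.52 in Parental cells, against medians of 0.11 and 0.093 over all genes tested. At 2, 4, 8, 16 and 24 h the members called in either direction in Dmr-PERK cells numbered 6, 8, 9, 10 and 10, against 19.7%, 49.2%, 66.6%, 78.2% and 80.8% of all genes. In Parental cells they numbered 9, 8, 9, 10 and 10, against 18.1%, 48.4%, 59.7%, 77.8% and 79.9%. At 16 and 24 h most of the transcriptome was called, so the count of members there is close to that of genes in general, and the sizes carry the difference. Scaling matters here: RLE in place of TMM moved the median of all genes under arsenite by 0.10 in Dmr-PERK and 0.11 in Parental cells, and log2(TPM + 1) moved it by -0.14 in Dmr-PERK and -0.19 in Parental cells.

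**Figure D1:**
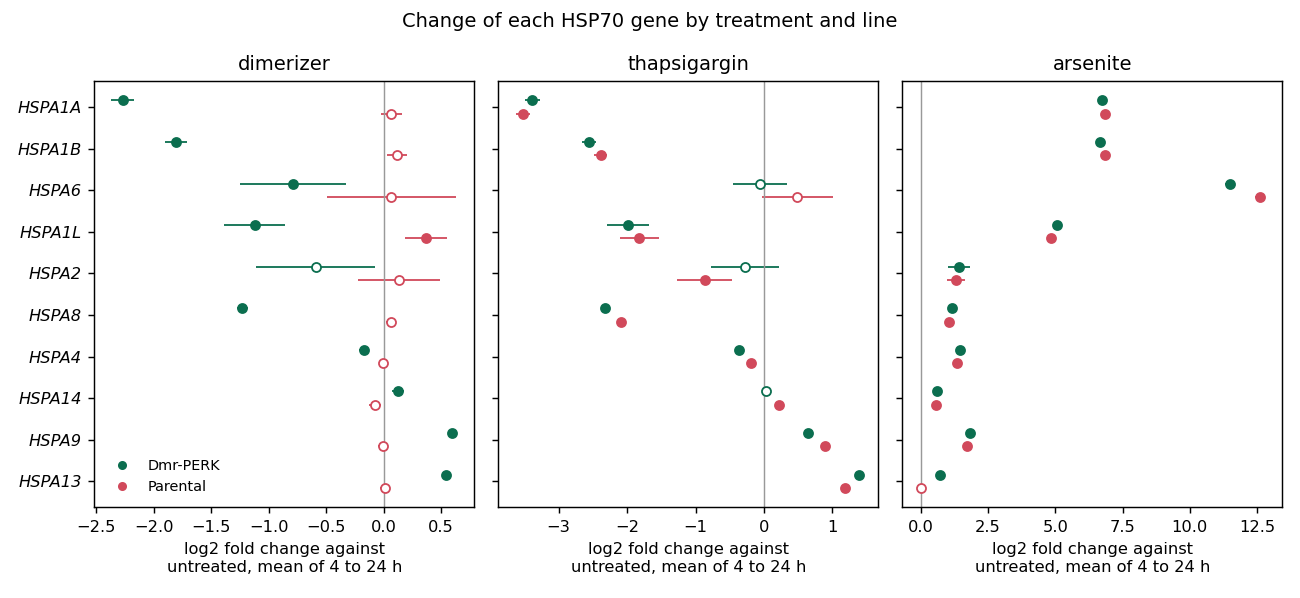
Log2 fold change of each HSP70 gene against untreated cells, averaged over 4 to 24 h, for dimerizer, thapsigargin and arsenite, with Dmr-PERK cells above Parental cells in each row. Points are the fitted values, bars span 1.96 approximate standard errors either side, filled points are called and open points are not, and the horizontal scales differ between panels. Arsenite values run up to 12.61 for HSPA6 in Parental cells, thapsigargin and the dimerizer in Dmr-PERK cells leave HSPA1A, HSPA1B and HSPA8 below 0, and HSPA9 and HSPA13 lie above 0 there.

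Among the inducible members HSPA1A+HSPA1B was already far above untreated cells at 2 h of arsenite. The sum had 2555, 2844 and 3848 CPM in Dmr-PERK cells at 2 h, against 155, 147 and 137 CPM in untreated Dmr-PERK cells at 0 h. Parental cells had 5231, 5628 and 6897 CPM at 2 h of arsenite, against 173, 154 and 151 CPM untreated at 0 h. No treated library came near an untreated one, and the log2 fold changes were 4.40 ± 0.094 (adjusted p = 3.0e-62) and 5.21 ± 0.097 (adjusted p = 1.5e-67) in Dmr-PERK and Parental cells. By 24 h Dmr-PERK cells held 53311, 51198 and 56808 CPM with arsenite, against 614, 547 and 556 CPM untreated. Parental cells held 90751, 92562 and 63128 CPM with arsenite, against 515, 549.7 and 461 CPM untreated, and the lowest of those treated values is the library that stood apart. At that time the sum made up 4.75% of a Dmr-PERK library and 7.03% of a Parental library on average, with 5.51% to 7.83% across the Parental libraries. All 10 members together made up 6.12% in Dmr-PERK and 8.78% in Parental cells. Over 4 to 24 h the log2 fold change was 6.70 ± 0.052 (adjusted p = 2.2e-103) in Dmr-PERK cells and 6.84 ± 0.052 (adjusted p = 6.6e-104) in Parental cells. Without the library that stood apart the Parental value was 6.88. The deposited rows taken singly gave 6.73 ± 0.055 for HSPA1A and 6.66 ± 0.052 for HSPA1B in Dmr-PERK cells, and 6.83 ± 0.055 and 6.84 ± 0.052 in Parental cells.

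HSPA6, whose protein is known in human cells as a strictly inducible HSP70, showed the highest log2 fold change of the members. It had 6999, 6763 and 7295 CPM at 24 h of arsenite in Dmr-PERK cells, against 1.93, 1.37 and 1.47 CPM in untreated ones. In Parental cells it had 13955, 14261 and 11938 CPM with arsenite, against 0.524, 0.416 and 0.557 CPM untreated. The groups did not overlap at any time, and at 2 h HSPA6 stood at 87.4, 114 and 203 CPM in Dmr-PERK and 153, 180.3 and 273 CPM in Parental cells. The mean log2 fold change over 4 to 24 h was 11.49 ± 0.091 (adjusted p = 3.4e-102) in Dmr-PERK and 12.61 ± 0.098 (adjusted p = 3.7e-103) in Parental cells. Untreated levels this low leave the size of the fold dependent on a few counts, so the CPM reached describe the gene better than its fold. HSPA7, a near-identical neighbour annotated as a pseudogene, could share reads with HSPA6, and its counts were 1.52% to 1.89% of those of HSPA6 under arsenite.

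HSPA1L was highest at 16 h, at a far lower level than the sum. It had 150.2, 139 and 138 CPM at 16 h of arsenite in Dmr-PERK cells, against 3.01, 2.78 and 3.02 CPM untreated. Parental cells had 151, 145 and 169 CPM at 16 h, against 2.59, 3.30 and 2.67 CPM untreated. Its mean log2 fold change was 5.05 ± 0.058 (adjusted p = 1.4e-88) in Dmr-PERK and 4.85 ± 0.056 (adjusted p = 2.2e-88) in Parental cells. HSPA1L shares sequence with HSPA1A and HSPA1B, and under arsenite its counts were 0.0737% to 0.325% of theirs. Whether reads of those genes add to the counts of HSPA1L was not tested. HSPA2 was the weakest of this group and was called at 16 and 24 h only, with 2.33, 1.85 and 2.22 CPM in Dmr-PERK cells at 24 h of arsenite, against 0.322, 0.214 and 0.357 CPM untreated. In Parental cells it had 3.95, 5.30 and 3.77 CPM at 24 h, against 0.857, 0.291 and 0.557 CPM untreated.

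**Figure D2:**
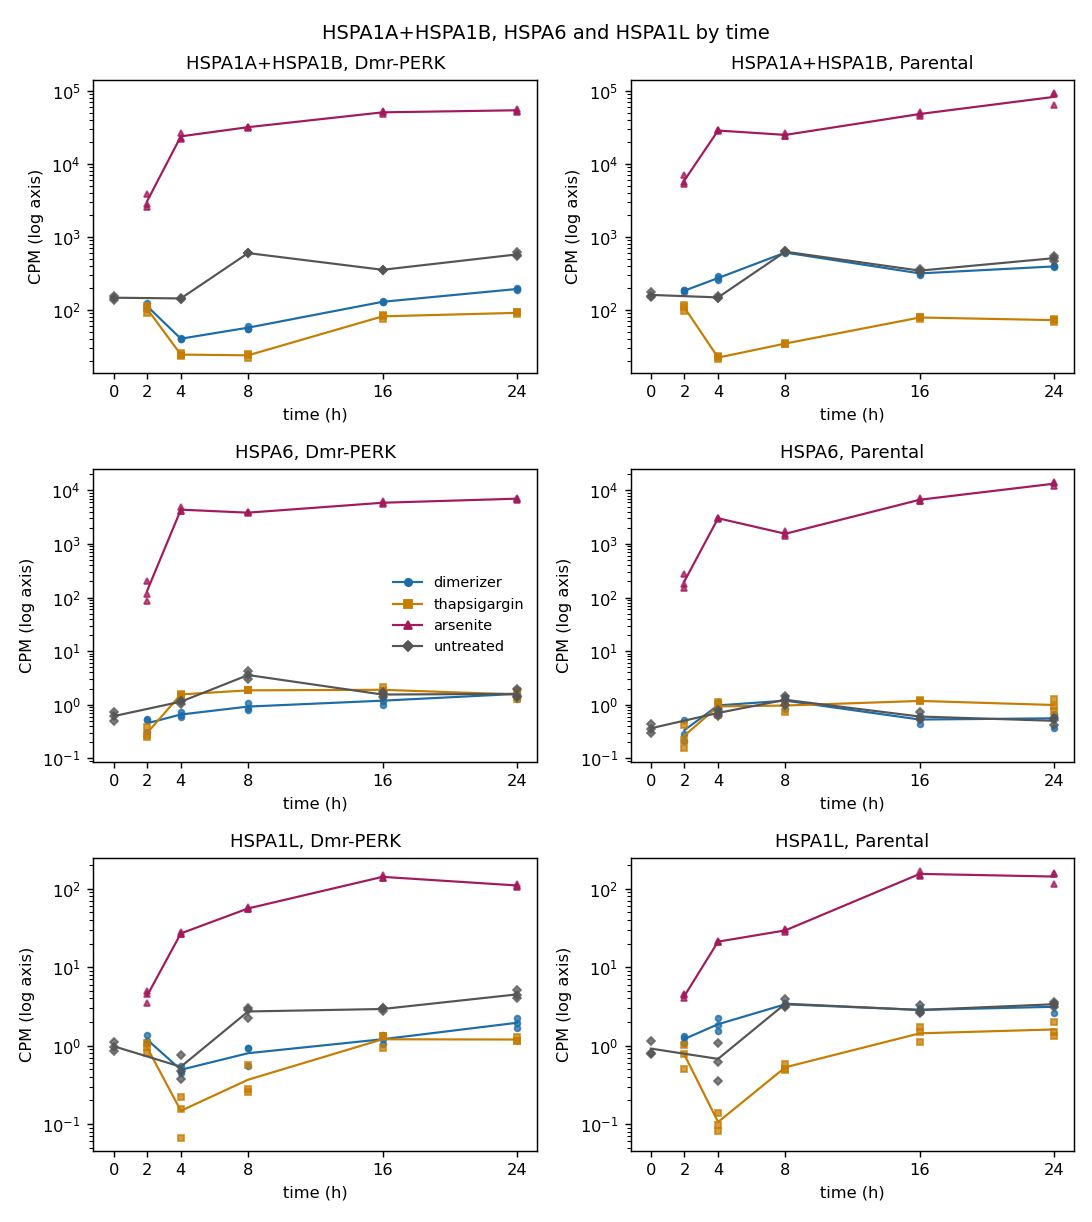
CPM on a log axis against time in hours for HSPA1A+HSPA1B, HSPA6 and HSPA1L, with Dmr-PERK cells on the left and Parental cells on the right. Points are single libraries and lines join the means of 3, and arsenite lies above every other treatment in all panels, while thapsigargin in both lines and the dimerizer in Dmr-PERK cells fall below untreated cells for the sum from 4 h on.

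HSPA8, the constitutive cytosolic HSP70, rose less in fold but started from the highest level. It had 5501, 5318 and 5924 CPM at 24 h of arsenite in Dmr-PERK cells, against 1461, 1376 and 1514 CPM untreated. Parental cells had 4651, 4849 and 4121 CPM at 24 h, against 1419, 1466 and 1343 CPM untreated. At 8 h, when untreated levels were highest, the difference was small: 2419, 2443 and 2436 CPM with arsenite, against 2182, 2128 and 2142 CPM untreated in Dmr-PERK cells. Averaged over 4 to 24 h the log2 fold change was 1.17 ± 0.024 (adjusted p = 1.3e-66) in Dmr-PERK and 1.05 ± 0.024 (adjusted p = 6.7e-63) in Parental cells. The 17 pseudogenes of HSPA8 in the tables together held 0.0409% to 0.807% of its counts.

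HSPA4, the HSP110-type exchange factor, was not called at 2 h in Dmr-PERK cells and was highest at 16 h. It had 1497, 1393 and 1393 CPM at 16 h of arsenite in Dmr-PERK cells, against 459, 456 and 448 CPM untreated. Parental cells had 1149, 1168 and 1169.6 CPM, against 418, 415 and 400.3 CPM untreated. The mean log2 fold change was 1.45 ± 0.019 (adjusted p = 4.6e-83) in Dmr-PERK and 1.34 ± 0.019 (adjusted p = 2.8e-80) in Parental cells. HSPA14, which acts at the ribosome with DNAJC2, gave its largest log2 fold changes at 16 and 24 h, after a small one at 2 h in Parental cells (0.22 ± 0.051). At 24 h it had 149, 152 and 153 CPM with arsenite in Dmr-PERK cells, against 52.1, 49.2 and 53.5 CPM untreated, and 129.8, 137 and 103 CPM in Parental cells, against 53.0, 54.3 and 50.3 CPM untreated. At 4 h it was called in neither line, and at 8 h the log2 fold change was -0.27 ± 0.052 (adjusted p = 3.1e-06) in Dmr-PERK cells and 0.14 ± 0.052 (adjusted p = 0.0135) in Parental cells, of opposite sign, though the Parental value was -0.053 (adjusted p = 0.529) in limma on log2(TPM + 1).

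HSPA9, the mitochondrial member, was higher at 4 h and at every later time. In Parental cells it was already called higher at 2 h, with a mean of 294 CPM against 253 CPM untreated at 0 h. Set against untreated Parental cells of 4 h, HSPA9 at 2 h gave 0.0055 ± 0.042 (adjusted p = 0.964 in edgeR). It had 1788, 1672 and 1659 CPM at 16 h of arsenite in Dmr-PERK cells, against 357, 367 and 355 CPM untreated. Parental cells had 1359, 1385 and 1405 CPM, against 310.5, 309.6 and 299.7 CPM untreated. Its mean log2 fold change was 1.83 ± 0.021 (adjusted p = 4.3e-88) in Dmr-PERK and 1.70 ± 0.021 (adjusted p = 1.5e-85) in Parental cells, with no overlap between treated and untreated groups. HSPA13 was the exception among the members. At 2 h it was lower with arsenite in both lines, with log2 fold changes of -0.21 ± 0.04 (adjusted p = 1.3e-05) in Dmr-PERK and -0.25 ± 0.039 (adjusted p = 1.8e-07) in Parental cells. At 24 h it had 135, 144 and 135 CPM with arsenite in Dmr-PERK cells, against 108, 105 and 99.3 CPM untreated, so it was higher there. Parental cells had 72.0, 77.5 and 60.7 CPM at 24 h of arsenite, against 127, 124 and 122 CPM untreated, so it was lower there. The mean over 4 to 24 h was 0.70 ± 0.019 (adjusted p = 7.3e-56) in Dmr-PERK cells and -0.0041 ± 0.019 (adjusted p = 0.868) in Parental cells, where times with a higher and a lower level offset each other. That Parental mean had no stable sign: it was 0.11 (adjusted p = 2.1e-07) in edgeR with RLE scaling, -0.16 (adjusted p = 7.6e-07) in limma on log2(TPM + 1) and 0.015 (adjusted p = 0.44) without the library that stood apart.

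**Figure D3:**
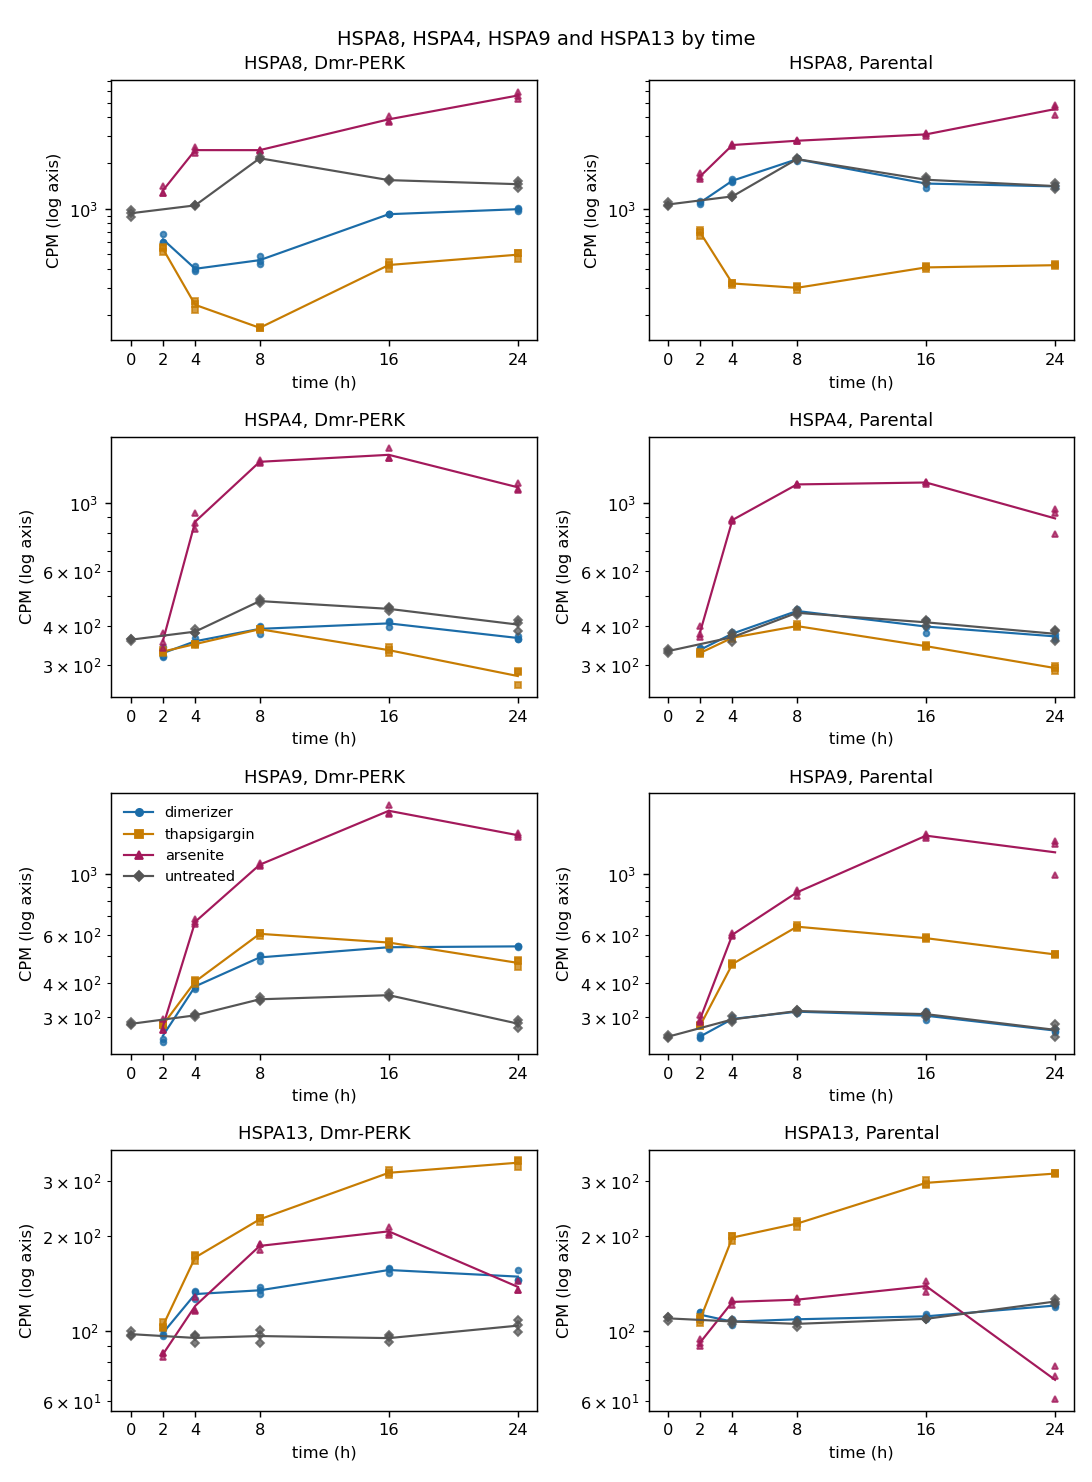
CPM on a log axis against time in hours for HSPA8, HSPA4, HSPA9 and HSPA13, with Dmr-PERK cells on the left and Parental cells on the right, points for single libraries and lines for means of 3. Thapsigargin lies below untreated cells for HSPA8 and, from 4 h on, above them for HSPA9 and HSPA13, and HSPA13 in Parental cells is the only panel in which arsenite ends below untreated cells at 24 h.

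Thapsigargin was compared with untreated cells to see the members' response to ER stress. The inducible pair and HSPA8 fell, while HSPA9 and HSPA13 rose. Of 10 members, 2 were called higher and 5 lower in Dmr-PERK cells, against 30.8% and 32.2% of all genes tested. In Parental cells 3 were called higher and 6 lower, against 29.8% and 34.7%. The medians of the members were -0.32 in Dmr-PERK and -0.53 in Parental cells, against -0.00010 and -0.058 over all genes. At 2, 4, 8, 16 and 24 h the members called in either direction numbered 5, 7, 8, 7 and 8 in Dmr-PERK cells, against 32.1%, 39.1%, 49.2%, 51.6% and 54.5% of all genes. In Parental cells they numbered 5, 8, 8, 8 and 8, against 29%, 39.2%, 49.4%, 55% and 54%. With untreated wells of 4 h in place of 0 h, 9 members were called at 2 h in Dmr-PERK cells, against 41.1% of all genes.

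HSPA1A+HSPA1B was lowest at 4 and 8 h of thapsigargin. At 8 h Dmr-PERK cells had 22.0, 24.3 and 24.9 CPM with thapsigargin, against 589.8, 594 and 605 CPM untreated. Parental cells had 33.9, 35.4 and 34.0 CPM with thapsigargin, against 628, 612 and 627 CPM untreated. At 4 h, when the untreated level was still that of 0 h, Dmr-PERK cells had 25.6, 23.6 and 23.7 CPM with thapsigargin and 140.2, 146 and 142 CPM untreated, so the groups stood apart there too. The log2 fold change over 4 to 24 h was -2.99 ± 0.047 (adjusted p = 8.6e-76) in Dmr-PERK cells and -2.97 ± 0.047 (adjusted p = 1.7e-75) in Parental cells.

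The counts were not lost evenly from both copies. Taken singly, HSPA1A gave -3.38 ± 0.055 and HSPA1B -2.55 ± 0.051 with thapsigargin in Dmr-PERK cells on the log2 scale, and -3.52 ± 0.056 and -2.39 ± 0.05 in Parental cells. HSPA1A held 39.3%, 47.9% and 57.8% of the counts of the sum (lowest, median and highest of 15 libraries) with thapsigargin in Dmr-PERK cells, against 58.7%, 61.0% and 62.5% in untreated ones. In Parental cells it held 31.5%, 43.6% and 60.6% with thapsigargin, against 58.1%, 61.6% and 63.1% untreated. In Parental cells the thapsigargin shares reached the untreated range at 2 h only, with 60.6%, 59.4% and 57.3%. From 4 h on the highest was 48.5%, at 4 h, below every untreated Parental share. In Dmr-PERK cells the shares of the 2 groups did not overlap. With the dimerizer the share was 44.3%, 54.0% and 59.4% in Dmr-PERK cells and 58.0%, 60.3% and 61.7% in Parental cells, and with arsenite its medians were 60.7% in Dmr-PERK and 59.3% in Parental cells. The authors' counting assigns reads shared by both copies by an estimate, so these shares are a description of the deposited counts, and whether they follow the transcripts was not tested.

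**Figure D4:**
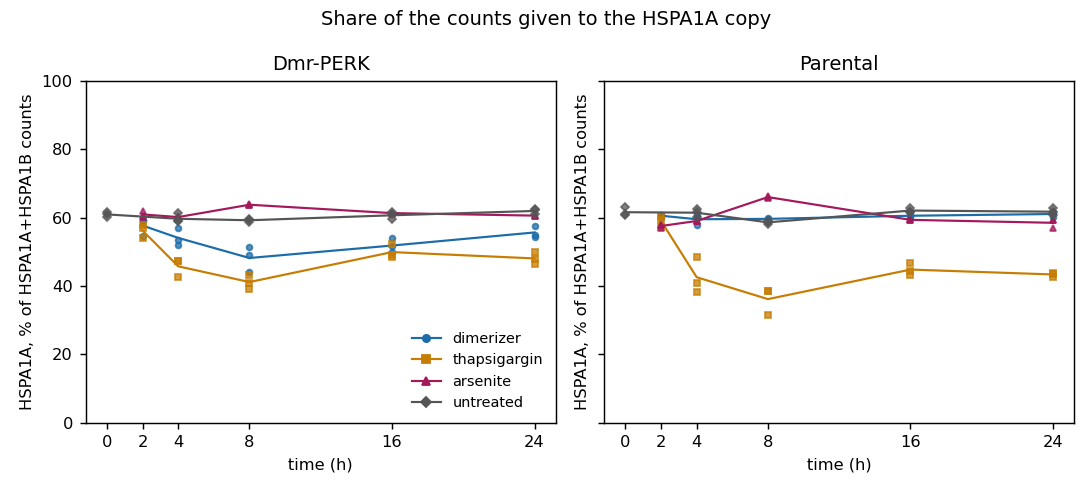
Share of the HSPA1A+HSPA1B counts given to HSPA1A, in percent, against time in hours, with Dmr-PERK cells on the left and Parental cells on the right, points for single libraries and lines for means of 3. Untreated libraries stay between 58.1% and 63.1%, and thapsigargin libraries reach down to 31.5%.

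HSPA8 fell with thapsigargin at every time. At 8 h it had 162, 165 and 163 CPM in Dmr-PERK cells, against 2182, 2128 and 2142 CPM untreated, and 307, 304 and 289 CPM in Parental cells, against 2158, 2099.7 and 2114 CPM untreated. Over 4 to 24 h the log2 fold change was -2.33 ± 0.025 (adjusted p = 3.0e-90) in Dmr-PERK and -2.10 ± 0.025 (adjusted p = 6.8e-87) in Parental cells. HSPA1L fell as well, with log2 fold changes of -1.99 ± 0.16 (adjusted p = 5.5e-21) in Dmr-PERK and -1.82 ± 0.15 (adjusted p = 7.3e-21) in Parental cells. HSPA4 fell by a smaller step, with -0.36 ± 0.019 (adjusted p = 1.9e-32) in Dmr-PERK and -0.19 ± 0.019 (adjusted p = 3.4e-16) in Parental cells. HSPA6 was not called over 4 to 24 h in either line, at -0.057 ± 0.2 (adjusted p = 0.863) in Dmr-PERK and 0.49 ± 0.26 (adjusted p = 0.097) in Parental cells, where DESeq2 called it at 0.49 (adjusted p = 0.0022). HSPA2 was called lower in Parental cells, at -0.87 ± 0.2 (adjusted p = 1.1e-04), and not in Dmr-PERK cells, at -0.28 ± 0.25 (adjusted p = 0.354).

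HSPA13 gave the highest log2 fold change of the members under thapsigargin. At 24 h it had 345, 348 and 332 CPM in Dmr-PERK cells, against 108, 105 and 99.3 CPM untreated. Parental cells had 316, 315 and 316 CPM with thapsigargin, against 127, 124 and 122 CPM untreated. The mean log2 fold change was 1.38 ± 0.019 (adjusted p = 3.4e-81) in Dmr-PERK and 1.18 ± 0.019 (adjusted p = 4.5e-76) in Parental cells. HSPA9 was highest at 8 h, with 609, 593 and 610.0 CPM in Dmr-PERK cells, against 354, 343 and 346 CPM untreated, and 639.7, 651 and 634 CPM in Parental cells, against 317, 318 and 309 CPM untreated. Its mean was 0.65 ± 0.021 (adjusted p = 1.4e-49) in Dmr-PERK and 0.89 ± 0.021 (adjusted p = 3.8e-61) in Parental cells. HSPA14 rose in Parental cells by 0.21 ± 0.025 (adjusted p = 6.6e-13), while Dmr-PERK cells gave 0.035 ± 0.026 (adjusted p = 0.239), and 0.11 (adjusted p = 0.00394) in limma on log2(TPM + 1).

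The dimerizer was compared with untreated Dmr-PERK cells to see how the members respond to the ligand where the construct is present, without a stressor. These libraries do not measure phosphorylation of eIF2α. Over 4 to 24 h HSPA1A+HSPA1B and HSPA8 were lower and HSPA9 and HSPA13 higher. In all, 3 of 10 members were called higher and 6 lower, against 27.4% and 27.9% of all genes tested. The median of the members was -0.69, against -0.029 over all genes. At 2, 4, 8, 16 and 24 h the members called in either direction numbered 6, 6, 8, 8 and 8, against 17.5%, 30%, 37%, 43.3% and 47.9% of all genes. Without replicate 2 the count at 2 h was 1.

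At 8 h of dimerizer the sum had 60.5, 54.8 and 55.1 CPM, against 589.8, 594 and 605 CPM in untreated Dmr-PERK cells. At 24 h it had 193, 185 and 199 CPM with dimerizer, against 614, 547 and 556 CPM untreated, so the gap was narrower but still open. The log2 fold change over 4 to 24 h was -2.06 ± 0.045 (adjusted p = 4.4e-63). HSPA8 had 485, 453 and 434 CPM at 8 h of dimerizer, against 2182, 2128 and 2142 CPM untreated, and 962, 999 and 1015 CPM at 24 h, against 1461, 1376 and 1514 CPM untreated. Its mean log2 fold change was -1.23 ± 0.024 (adjusted p = 3.4e-67).

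Among the low members, HSPA1L was lower, at -1.12 ± 0.14 (adjusted p = 5.8e-12), and so was HSPA6, at -0.79 ± 0.24 (adjusted p = 0.00262). HSPA6 had 0.811, 0.881 and 1.07 CPM at 8 h of dimerizer, against 3.55, 4.19 and 2.97 CPM untreated, and 8 h was the only single time at which it was called. HSPA2 was not called, at -0.59 ± 0.26 (adjusted p = 0.0504), but was with RLE scaling, at -0.61 (adjusted p = 0.0431). HSPA4 was lower by a small step, at -0.18 ± 0.019 (adjusted p = 5.1e-14), and HSPA14 was higher, at 0.12 ± 0.026 (adjusted p = 1.3e-05). HSPA9 had 546, 546 and 538 CPM at 24 h of dimerizer, against 284, 273 and 291 CPM untreated, and its mean was 0.60 ± 0.021 (adjusted p = 3.3e-46). At 2 h HSPA9 was lower than in untreated cells of 0 h, at -0.14 (adjusted p = 0.00881 in edgeR). In limma on log2(TPM + 1) that value was 0.011 (adjusted p = 0.975). HSPA13 had 158, 153 and 158 CPM at 16 h of dimerizer, against 96.9, 95.8 and 92.3 CPM untreated, and its mean was 0.54 ± 0.019 (adjusted p = 1.0e-45).

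The dimerizer was also added to Parental cells, in which no construct is present, as a control. Over 4 to 24 h 1 of 10 members was called, HSPA1L at 0.37 ± 0.094 (adjusted p = 0.0346), against 0.278% of all genes called higher and 0.237% lower. The call ended whichever replicate number was left out, with adjusted p of 0.548, 0.134 and 0.237 in edgeR without 1, 2 and 3. The sum gave 0.085 ± 0.041 (adjusted p = 0.552) and HSPA8 0.062 ± 0.024 (adjusted p = 0.324), neither of which was called. Without the filter on low counts the sum was called (adjusted p = 0.0257). The 95% interval of the sum ran from 0.0039 to 0.17 on the log2 scale. The 4 h wells differed from this pattern. The sum had 254, 271 and 289 CPM at 4 h of dimerizer, against 143, 144 and 155 CPM untreated, with no overlap and a log2 fold change of 0.88 ± 0.086 (adjusted p = 6.4e-14). HSPA8 had 1514, 1508 and 1566 CPM, against 1196, 1186 and 1233 CPM untreated, a log2 fold change of 0.34 ± 0.047 (adjusted p = 2.3e-08). In all, 5 members were called at 4 h, 4 of them higher, against 7.17% of all genes. At 2, 8, 16 and 24 h no member was called by edgeR, against 0.126% of genes at 2 h and 0% at the other times. With untreated wells of 4 h in place of 0 h, 7 members were called at 2 h, against 22.1% of all genes. At an unadjusted p under 0.05, 2, 0, 0 and 2 members passed at those times, against 5.75%, 3.96%, 3.9% and 4.66% of all genes, and DESeq2 called 0, 0, 0 and 2. At 24 h the sum had 399, 392 and 385 CPM with dimerizer, against 515, 549.7 and 461 CPM untreated, with no overlap. Its log2 fold change of -0.38 ± 0.082 (adjusted p = 0.1) was not called in edgeR, but it was in DESeq2 (adjusted p = 0.0047), in edgeR without the filter on low counts (adjusted p = 5.6e-14) and in edgeR without replicate 3 (adjusted p = 1.7e-06).

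The effect of each treatment was compared between the lines as an interaction. For the dimerizer 3 members were called higher and 5 lower in Dmr-PERK than in Parental cells, against 23.6% and 23.1% of all genes, and the difference was -2.15 ± 0.061 (adjusted p = 5.1e-53) for the sum and -1.29 ± 0.034 (adjusted p = 3.2e-56) for HSPA8. For thapsigargin 1 was called higher and 4 lower, against 11.3% and 14.4%. The sum did not differ beyond its error there, at -0.027 ± 0.065 (adjusted p = 0.868), with a 95% interval from -0.15 to 0.10. HSPA8 fell further in Dmr-PERK cells, a difference of -0.23 ± 0.034 (adjusted p = 2.7e-08), HSPA9 rose less, at -0.24 ± 0.029 (adjusted p = 5.3e-11), and HSPA13 rose more, at 0.20 ± 0.026 (adjusted p = 3.4e-10).

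For arsenite 4 members were called higher and 2 lower in Dmr-PERK than in Parental cells, against 23.5% and 18.8% of all genes, and 2 higher and 1 lower without replicate 1. The median difference was 0.11 over the members and 0.053 over all genes. HSPA8 (0.11), HSPA4 (0.11) and HSPA9 (0.13), called higher, lie near that general offset. HSPA13 differed most among those called higher, by 0.71 ± 0.027 (adjusted p = 2.8e-41), and HSPA6 was lower, at -1.12 ± 0.24 (adjusted p = 6.4e-05). Untreated HSPA6 was itself higher in Dmr-PERK cells, by 1.19 ± 0.25 (adjusted p = 1.7e-05), so the larger fold in Parental cells starts from a lower level. The sum differed by -0.14 ± 0.058 (adjusted p = 0.0468), and by -0.18 (adjusted p = 0.00248) without the library that stood apart. That call ended without replicate 1, at -0.14 (adjusted p = 0.125), without replicate 2, at -0.10 (adjusted p = 0.40), and in limma on log2(TPM + 1), at -0.075 (adjusted p = 0.30). Untreated cells of the lines differed in 6 of 10 members, against 62.1% of all genes. HSPA2 was lower in Dmr-PERK cells, at -1.19 ± 0.19 (adjusted p = 6.1e-08), and HSPA8, HSPA4, HSPA9 and HSPA13 differed by 0.19 or less in either direction. The call of HSPA8 ended without replicate 1 (adjusted p = 0.0754 in edgeR) and without replicate 2 (adjusted p = 0.0792). HSPA1A+HSPA1B differed by -0.0059 ± 0.038 (adjusted p = 0.942) and was not called.

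The treatments were also set directly against each other over 2 to 24 h, with no untreated well in the comparison. In Dmr-PERK cells 7 members differed between dimerizer and thapsigargin, against 46.8% of all genes, 10 between dimerizer and arsenite, against 80.3%, and 10 between arsenite and thapsigargin, against 80.5%. In Parental cells these counts were 9, 10 and 10, against 62.3%, 78.3% and 79.1%. In Dmr-PERK cells the sum was higher with dimerizer than with thapsigargin by 0.77 ± 0.042 (adjusted p = 8.0e-31) and HSPA8 by 0.92 ± 0.022 (adjusted p = 3.2e-60). HSPA13 was lower with dimerizer, at -0.69 ± 0.017 (adjusted p = 2.3e-59), and so was HSPA9, at -0.067 ± 0.018 (adjusted p = 0.00141), a call that ended without replicate 2 (adjusted p = 0.0541 in edgeR). Between arsenite and thapsigargin the sum differed by 8.74 ± 0.051 (adjusted p = 4.1e-114) in Dmr-PERK and 9.0 ± 0.052 (adjusted p = 9.6e-115) in Parental cells.

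The effect at 24 h was compared with that at 4 h for the sum, HSPA8 and HSPA9. With arsenite the effect on HSPA9 grew by 1.16 ± 0.059 (adjusted p = 1.6e-33) in Dmr-PERK and 1.13 ± 0.059 (adjusted p = 5.2e-33) in Parental cells, and that on HSPA8 by 0.73 ± 0.067 in Dmr-PERK and 0.56 ± 0.067 in Parental cells. The effect on the sum was smaller at 24 h, with a change of -0.82 ± 0.12 (adjusted p = 1.4e-09) in Dmr-PERK and -0.25 ± 0.12 (adjusted p = 0.0487) in Parental cells, although its CPM was higher, and untreated cells were also higher at 24 h. The Parental value was -0.10 (adjusted p = 0.409) without the library that stood apart and -0.050 (adjusted p = 0.731) with RLE scaling in edgeR. That call also ended without replicate 1 (adjusted p = 0.0761 in edgeR), without replicate 2 (adjusted p = 0.152) and with a replicate block (adjusted p = 0.0553). On log2(TPM + 1) in limma the Parental change of HSPA8 was -0.026 (adjusted p = 0.777), of the other sign. Of all genes, 61.4% changed in this way in Dmr-PERK and 63.5% in Parental cells. With thapsigargin the loss of HSPA8 narrowed by 0.63 ± 0.068 (adjusted p = 5.4e-14) in Dmr-PERK and 0.17 ± 0.067 (adjusted p = 0.0308) in Parental cells, while the sum was called in neither line, against 41.7% and 39.3% of all genes. The Parental call of HSPA8 ended whichever replicate number was left out, with adjusted p of 0.0603, 0.0834 and 0.178 in edgeR without 1, 2 and 3. With dimerizer HSPA8 narrowed by 0.84 ± 0.067 (adjusted p = 7.0e-20) and HSPA9 widened by 0.59 ± 0.059 (adjusted p = 5.9e-15) in Dmr-PERK cells, against 34.7% of all genes. The change of the sum there, 0.26 ± 0.13 (adjusted p = 0.108), was not called. Without the filter on low counts it was called, at 0.24 (adjusted p = 0.00189 in edgeR). In Parental cells the dimerizer effect on the sum was lower at 24 h than at 4 h, at -1.26 ± 0.12 (adjusted p = 1.2e-13), against 3.97% of all genes.

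The partners of these chaperones were read from 6 lists with 37 genes, all tested. With arsenite, 24 of them were called higher and 11 lower for Dmr-PERK cells and 23 higher and 9 lower in Parental cells, against 44.2% and 39.2% of all genes in Dmr-PERK and 42.4% and 39.4% in Parental cells, with medians of 0.47 in Dmr-PERK and 0.50 in Parental cells, against 0.11 and 0.093 over all genes. All 9 genes of the J protein list were higher in both lines, with a median of 1.91 in Dmr-PERK and 2.17 in Parental cells. On log2(TPM + 1) DNAJA2 in Parental cells was lower, at -0.066 (adjusted p = 3.6e-05 in limma). The J proteins DNAJA3 and DNAJC19 stood on the list of mitochondrial partners instead. DNAJC19 was lower in Dmr-PERK cells, at -0.94 ± 0.042. DNAJA3 gave 0.097 in Dmr-PERK and 0.17 in Parental cells, but -0.088 and -0.11 on log2(TPM + 1). DNAJB1, the J protein that works with the inducible HSP70, averaged 4316 CPM with arsenite and 195 CPM untreated in Dmr-PERK cells, a log2 fold change of 4.50 ± 0.03 (adjusted p = 1.1e-108), and Parental cells gave 4.13 ± 0.029 (adjusted p = 4.0e-106). DNAJA4 gave 5.55 ± 0.041 (adjusted p = 1.1e-104) in Dmr-PERK and 5.16 ± 0.04 (adjusted p = 3.7e-103) in Parental cells. The exchange factor BAG3 gave 3.82 ± 0.028 (adjusted p = 3.2e-105) in Dmr-PERK and 4.09 ± 0.029 (adjusted p = 8.8e-107) in Parental cells. HSPH1, a cytosolic HSP110, gave 3.17 ± 0.031 (adjusted p = 8.4e-94) in Dmr-PERK and 3.15 ± 0.031 (adjusted p = 1.0e-93) in Parental cells. HSPA7 averaged 86.9 CPM with arsenite and 0.0598 CPM untreated in Dmr-PERK cells, too low for a fold to be read.

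The mitochondrial chaperonins HSPD1 and HSPE1 rose with arsenite, by 2.31 ± 0.024 and 2.14 ± 0.033 in Dmr-PERK cells and by 2.09 ± 0.023 and 2.38 ± 0.033 in Parental cells on the log2 scale. GRPEL1, the exchange factor of HSPA9, rose by 0.33 ± 0.029 in Dmr-PERK and 0.40 ± 0.029 in Parental cells, where log2(TPM + 1) gave -0.035 (adjusted p = 0.354 in limma). HSF1 itself, the factor that drives heat shock genes, was lower at the RNA level over 4 to 24 h. It gave -0.12 ± 0.018 (adjusted p = 1.5e-08) in Dmr-PERK and -0.18 ± 0.018 (adjusted p = 4.8e-16) in Parental cells. At 24 h alone it was higher in Dmr-PERK cells, at 0.14 (adjusted p = 4.6e-04 in edgeR), but -0.14 (adjusted p = 1.5e-05) in limma on log2(TPM + 1). With RLE scaling the 4 to 24 h mean of Dmr-PERK cells was -0.0023 (adjusted p = 0.922 in edgeR), not a call. The lowest called values belonged to HSPA12B in both lines, -1.65 ± 0.078 in Dmr-PERK and -2.13 ± 0.093 in Parental cells, next to DNAJC19 at -0.94 ± 0.042 in Dmr-PERK and HYOU1 at -1.21 ± 0.019 in Parental cells. HSPA5, the ER HSP70, was lower, at -0.38 ± 0.02 in Dmr-PERK and -0.75 ± 0.02 in Parental cells.

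With thapsigargin, of the 37 partners 19 were called higher and 14 lower for Dmr-PERK cells, against 30.8% and 32.2% of all genes, and 20 were higher and 15 lower in Parental cells, against 29.8% and 34.7%. Their medians were 0.065 in Dmr-PERK and 0.15 in Parental cells, against -0.00010 and -0.058 over all genes. HSPA5 averaged 9811 CPM with thapsigargin and 779 CPM untreated in Dmr-PERK cells, and its log2 fold change was 3.64 ± 0.022 (adjusted p = 2.9e-112), with 3.37 ± 0.022 (adjusted p = 6.1e-110) in Parental cells. HYOU1, the ER HSP110, gave 2.74 ± 0.018 in Dmr-PERK and 2.94 ± 0.018 in Parental cells, so the ER members went up where the cytosolic HSPA8 and HSPA1A+HSPA1B went down. HSPE1 was lower, at -1.08 ± 0.034 in Dmr-PERK and -1.08 ± 0.035 in Parental cells. HSPH1 was lower, at -0.92 ± 0.03 in Dmr-PERK and -0.95 ± 0.031 in Parental cells. HSPA12B was the lowest, at -1.30 ± 0.074 in Dmr-PERK and -1.37 ± 0.079 in Parental cells. DNAJB1 was lower, at -0.49 ± 0.028 in Dmr-PERK and -0.69 ± 0.028 in Parental cells, and BAG3 by less, at -0.18 ± 0.028 in Dmr-PERK and -0.13 ± 0.03 in Parental cells. GRPEL1 was higher, at 0.39 ± 0.028 in Dmr-PERK and 0.46 ± 0.028 in Parental cells. In Dmr-PERK cells HSF1 was lower at 2 h (-0.20, adjusted p = 3.0e-06 in edgeR) and 4 h (-0.16, adjusted p = 1.0e-04), and higher from 8 h on. Those early falls were not called in limma on log2(TPM + 1) (adjusted p = 0.0842 and 0.843). Parental HSF1 was lower at 2 h, at -0.098 (adjusted p = 0.0331 in edgeR). Over 4 to 24 h the HSF1 mean was slightly higher than untreated, at 0.065 ± 0.018 in Dmr-PERK and 0.12 ± 0.018 in Parental cells. HSPD1 was lower in Dmr-PERK cells, at -0.37 ± 0.023 (adjusted p = 3.5e-28), and was not called in Parental cells, at 0.0053 ± 0.023 (adjusted p = 0.887). Of the 10 mitochondrial partners, 8 were higher in each line, and 2 in Dmr-PERK and 1 in Parental cells were lower, beside the same shares of all genes.

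With dimerizer, 19 of the partners were called higher and 14 lower for Dmr-PERK cells, against 27.4% and 27.9% of all genes, with a median of 0.15, against -0.029. The matrix exchange factor GRPEL2 was highest at 1.02 ± 0.031 (adjusted p = 2.8e-51), followed by the mitochondrial J protein DNAJA3 at 0.94 ± 0.025 (adjusted p = 1.8e-56). DNAJB4 was lowest at -0.87 ± 0.03 (adjusted p = 1.5e-46), next to HSPE1 at -0.71 ± 0.034 (adjusted p = 8.1e-36). HSPH1 (-0.66 ± 0.03), BAG3 (-0.62 ± 0.029), DNAJB1 (-0.45 ± 0.028) and HSPD1 (-0.25 ± 0.023) fell on the log2 scale, while HSPA5 rose by 0.36 ± 0.02, GRPEL1 by 0.28 ± 0.029 and HSF1 by 0.24 ± 0.018. Of 10 mitochondrial partners 8 were higher, against the 27.4% of all genes. In Parental cells HYOU1 was the 1 partner of 37 called with dimerizer, against 0.278% of all genes called higher, at 0.068 ± 0.018 (adjusted p = 0.0445).

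**Figure D5:**
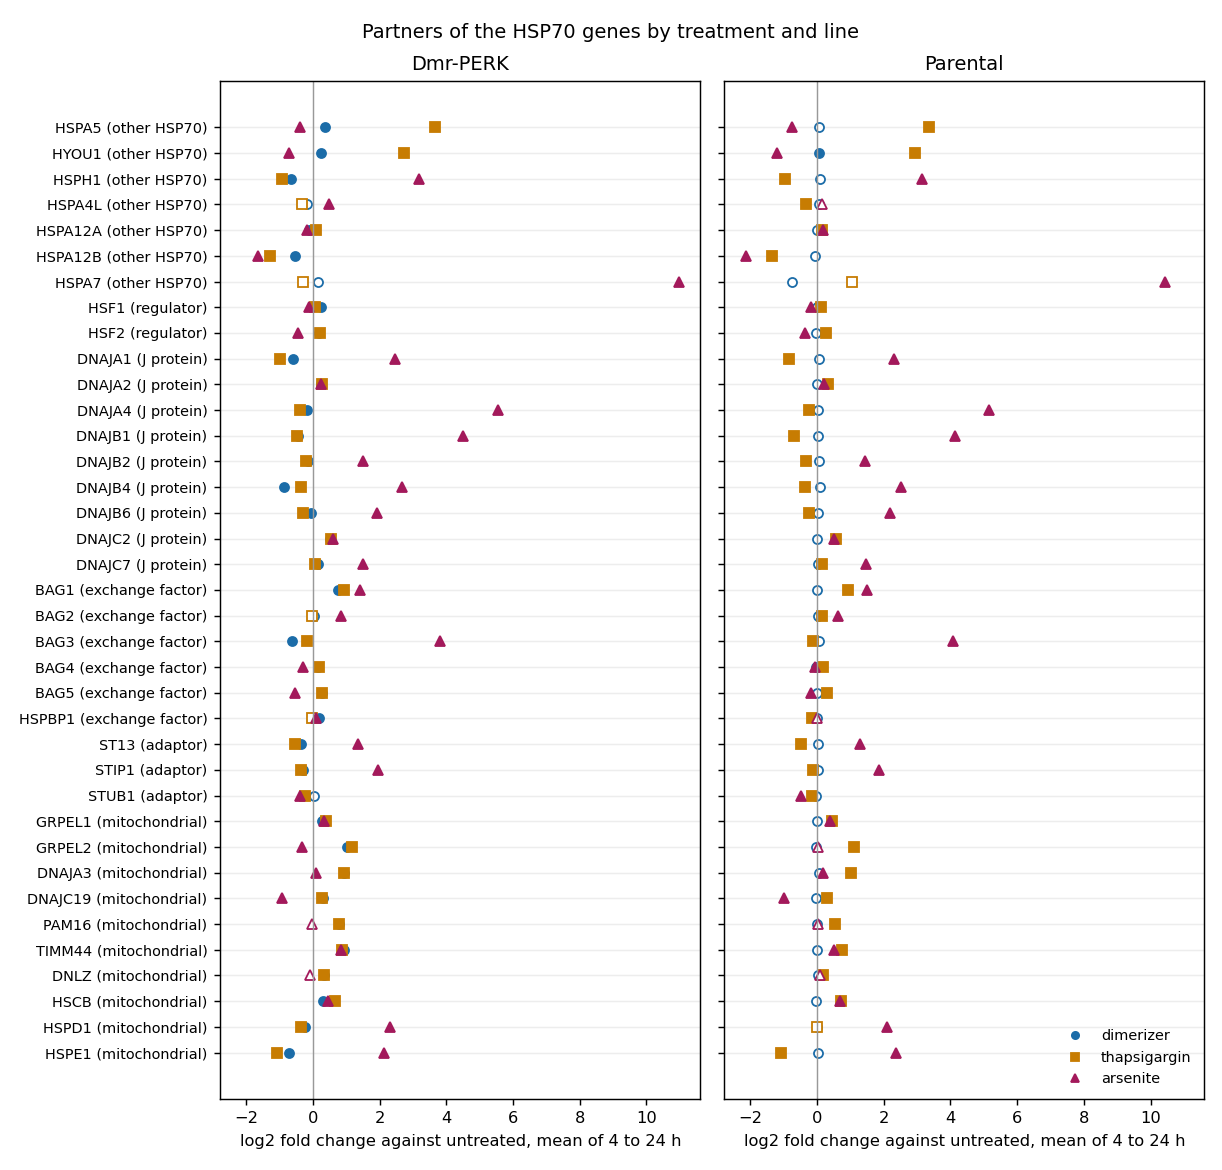
Log2 fold change against untreated cells, averaged over 4 to 24 h, for 37 partner genes grouped by list, with Dmr-PERK cells on the left and Parental cells on the right. Filled symbols are called and open ones are not. Genes of the J protein list lie to the right with arsenite, and HSPA5 and HYOU1 to the right with thapsigargin. The dimerizer symbols of Parental cells lie close to 0 apart from the barely detected HSPA7.

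Genes whose log2 CPM followed a member most closely over the 40 group means were ranked by Pearson correlation, among genes with a mean of at least 5 CPM and with the 10 members left out of the ranking. The groups share lines, treatments and times, so the values describe likeness and carry no p. Of these other genes, HSPA1A+HSPA1B was most like HSPH1 (r = 0.981), DNAJA1 (0.971), HSPE1 (0.966), MBOAT7 (0.958) and DNAJA4 (0.956). HSPA8 was most like PRDX1 (0.935), ZC3HAV1 (0.909), CRYZ (0.892), ZBED1 (0.883) and SPR (0.881). HSPA9 was most like LONP1 (0.974), PEA15 (0.966), RPLP0P2 (0.965), NGRN (0.965) and RSL24D1 (0.964). Among the members themselves, which were left unranked, the sum had r = 0.964 with HSPA1L, 0.926 with HSPA6, 0.884 with HSPA4, 0.882 with HSPA8, 0.599 with HSPA9, 0.508 with HSPA14 and -0.289 with HSPA13, while HSPA8 had r = 0.896 with HSPA1A and 0.318 with HSPA9.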

How the data were processed

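RNA from 120 wells (40 groups of 3) was read with a directional kit, per the labels' protocols. The authors deposited estimated counts and TPM values for 57665 genes. Salmon 0.9.1, FastQC 0.11.5 and GRCh38 appear among the tools and builds of the submitters' processing notes, and their settings, strand included, have no description in the labels. Of the non-zero entries deposited as counts, 49.5% are whole within 1e-05, which is why they are taken as estimated counts. Every column matched 1 sample label.

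Estimated counts were rounded and tested with edgeR 4.0.16 (quasi-likelihood, R 4.3.3) after its expression filter by group at a minimum count of 10 (26998 genes) and TMM scaling (factors 0.839 to 1.169). One fit held all 120 libraries in 40 groups (12.7 prior and 80 residual degrees of freedom), with Benjamini-Hochberg adjustment over the genes of each comparison. Each treatment was set against untreated cells of its own line and time, as the mean of 4, 8, 16 and 24 h and singly, and 2 h was set against 0 h. For HSPA1A+HSPA1B the 2 rows were summed and all genes refitted. The self-test on simulated counts preceded the fits. No 2 libraries agreed within sampling noise (lowest chi-square over degrees of freedom 1.48 between replicates).

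The members and lists were chosen with earlier results of these data known. Named were all members, of the partner lists the 2 called genes with the highest and the 2 with the lowest log2 fold change per comparison plus HSPA5, HSPH1, DNAJB1, BAG3, HSF1, GRPEL1, HSPD1 and HSPE1, and for likeness the 5 highest correlations, the members left out, of log2 CPM (prior count 2). Alternatives were RLE scaling, DESeq2 1.42.0, no filter, limma 3.58.1 on log2(TPM + 1) and log2(TPM + 0.1), each line alone, each replicate left out, a replicate block, untreated 4 h in place of 0 h for the 2 h wells, and, chosen after seeing the data, a fit without Parental arsenite 24 h replicate 3. Promoter windows (250 bases before to 50 after the start) came from RefSeq, GRCh38.p14.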

Additional observations from a re-analysis of the deposited data

Results flagged for a closer look

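Differences between the lines in the response of a member were tested as an interaction in edgeR, as the effect in Dmr-PERK cells minus that in Parental cells over 4 to 24 h, on the log2 scale. For the dimerizer they were -2.33 for HSPA1A, -1.91 for HSPA1B, -1.49 for HSPA1L, -1.29 for HSPA8, -0.17 for HSPA4, 0.20 for HSPA14, 0.60 for HSPA9, 0.54 for HSPA13 and -2.15 for HSPA1A+HSPA1B, with the highest adjusted p at 9.8e-07. For thapsigargin they were -0.23 for HSPA8, -0.16 for HSPA4, -0.18 for HSPA14, -0.24 for HSPA9 and 0.20 for HSPA13, with the highest adjusted p at 3.0e-05. For arsenite they were -0.18 for HSPA1B, -1.12 for HSPA6, 0.11 for HSPA8, 0.11 for HSPA4, 0.13 for HSPA9, 0.71 for HSPA13 and -0.14 for HSPA1A+HSPA1B, with the highest adjusted p at 0.0468. The arsenite calls of HSPA8 (adjusted p = 0.144) and HSPA4 (0.103) ended without replicate 1. That of HSPA1B ended without replicate 1 (adjusted p = 0.0503), without replicate 2 (0.178) and in limma on log2(TPM + 1) (0.171). The arsenite difference of HSPA1A, -0.11 (adjusted p = 0.174 in edgeR), was not called. Without the library that stood apart it was called, at -0.15 (adjusted p = 0.0166 in edgeR).

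Differences between times were tested in edgeR for HSPA1A+HSPA1B, HSPA8 and HSPA9, as the effect at 24 h minus that at 4 h. In Dmr-PERK cells they were 0.84 for HSPA8 and 0.59 for HSPA9 with dimerizer, 0.63 for HSPA8 and 0.33 for HSPA9 with thapsigargin and 0.73 for HSPA8, 1.16 for HSPA9 and -0.82 for HSPA1A+HSPA1B with arsenite. In Parental cells they were -0.35 for HSPA8 and -1.26 for HSPA1A+HSPA1B with dimerizer, 0.17 for HSPA8 and 0.24 for HSPA9 with thapsigargin and 0.56 for HSPA8, 1.13 for HSPA9 and -0.25 for HSPA1A+HSPA1B with arsenite. The Parental dimerizer call of HSPA8 ended without replicate 2 (-0.31, adjusted p = 0.108 in edgeR). With 3 wells a group, single wells were not tested against the others of their group.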

How the results depend on the processing

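The 303 reported results were recomputed under the alternatives, which gave 2856 values, and 2710 of these kept direction and call (counts: within 1.5 times). Another 35 lost their call, 48 gained one, 40 changed sign and 23 counts moved by more. Of the sign changes 35 were of values not called before, and 5 of called ones, in 4 results: HSPA8 in the Parental arsenite change with time, HSPA13 between dimerizer and arsenite in each line, and HSPA14 between arsenite and thapsigargin in Parental cells. Scaling limits small log2 values under arsenite, depth limits HSPA2, HSPA6 and HSPA1L in untreated cells, and the split of reads limits HSPA1A and HSPA1B taken singly. The cause of each change below was not tested. Values after against are those of the report.

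With RLE scaling the value was 0.11 (against -0.0041) for HSPA13 in Parental arsenite over 4 to 24 h, -0.050 (against -0.25; adjusted p = 0.731 against 0.0487) for HSPA1A+HSPA1B in Parental arsenite 24 h minus 4 h effect, -0.022 (against 0.068) for HSPA13 in Parental dimerizer minus arsenite and 0.0063 (against -0.0059) for HSPA1A+HSPA1B in Dmr-PERK minus Parental untreated. This setting also gave 0.0095 (against -0.0027) for HSPA14 in Dmr-PERK minus Parental untreated. With DESeq2 the value was 2 (against 0) for the members called for Parental dimerizer 24 h, 0.11 (against -0.0041) for HSPA13 in Parental arsenite over 4 to 24 h, -0.049 (against -0.25; adjusted p = 0.73 against 0.0487) for HSPA1A+HSPA1B in Parental arsenite 24 h minus 4 h effect and -0.022 (against 0.068) for HSPA13 in Parental dimerizer minus arsenite. This setting also gave 0.0064 (against -0.0059) for HSPA1A+HSPA1B in Dmr-PERK minus Parental untreated and 0.0095 (against -0.0027) for HSPA14 in Dmr-PERK minus Parental untreated. With no filter on low counts the value was 0.24 (against 0.26; adjusted p = 0.00189 against 0.108) for HSPA1A+HSPA1B in Dmr-PERK dimerizer 24 h minus 4 h effect, 2 (against 1) for the members higher for Parental dimerizer over 4 to 24 h, 0.085 (against 0.085; adjusted p = 0.0257 against 0.552) for HSPA1A+HSPA1B in Parental dimerizer over 4 to 24 h and 1 (against 0) for the members called for Parental dimerizer 2 h. This setting also gave 2 (against 0) for the members called for Parental dimerizer 24 h, 2 (against 1) for the members higher for Dmr-PERK minus Parental, thapsigargin effect, 0.0036 (against -0.0059) for HSPA1A+HSPA1B in Dmr-PERK minus Parental untreated and 0.0065 (against -0.0027) for HSPA14 in Dmr-PERK minus Parental untreated. In limma on log2(TPM + 1) the value was 0.0081 (against -0.28) for HSPA2 in Dmr-PERK thapsigargin over 4 to 24 h, -0.010 (against 0.023) for HSPA14 in Dmr-PERK dimerizer minus thapsigargin, 0.035 (against -0.083) for HSPA13 in Dmr-PERK dimerizer minus arsenite and -0.041 (against 0.72) for HSPA2 in Dmr-PERK untreated 24 h minus 0 h. This setting also gave 0 (against 1) for the members higher for Parental dimerizer over 4 to 24 h, 1 (against 0) for the members lower for Parental arsenite over 4 to 24 h, -0.026 (against 0.56) for HSPA8 in Parental arsenite 24 h minus 4 h effect and -0.072 (against 0.28) for HSPA14 in Parental arsenite minus thapsigargin. This setting also gave 0.0042 (against -0.027) for HSPA1A+HSPA1B in Dmr-PERK minus Parental, thapsigargin effect, 1 (against 2) for the members lower for Dmr-PERK minus Parental, arsenite effect, -0.075 (against -0.14; adjusted p = 0.3 against 0.0468) for HSPA1A+HSPA1B in Dmr-PERK minus Parental, arsenite effect and -0.13 (against 0.12) for HSPA2 in Dmr-PERK minus Parental, arsenite effect. This setting also gave -0.0021 (against 0.017) for HSPA1B in Dmr-PERK minus Parental untreated and 0.0096 (against -0.0027) for HSPA14 in Dmr-PERK minus Parental untreated. In limma on log2(TPM + 0.1) the value was 0 (against 1) for the members higher for Parental dimerizer over 4 to 24 h and 1 (against 0) for the members lower for Parental arsenite over 4 to 24 h. With only the libraries of the line the value was 0 (against 1) for the members higher for Parental dimerizer over 4 to 24 h and 0.023 (against -0.0041) for HSPA13 in Parental arsenite over 4 to 24 h. With untreated 4 h in place of 0 h the value was 9 (against 5) for the members called for Dmr-PERK thapsigargin 2 h and 7 (against 0) for the members called for Parental dimerizer 2 h.

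Leaving out one replicate number, or the library that stood apart (replicate 3 of Parental arsenite at 24 h), gave ranges of 1 to 6 for the members called for Dmr-PERK dimerizer 2 h, -0.14 to 0.00034 for HSPA6 in Dmr-PERK thapsigargin over 4 to 24 h, -0.027 to 0.025 for HSPA9 in Dmr-PERK untreated 24 h minus 0 h and 0 to 0 for the members higher for Parental dimerizer over 4 to 24 h. Further ranges were -0.059 to 0.29 for HSPA6 in Parental dimerizer over 4 to 24 h, -0.012 to 0.00096 for HSPA4 in Parental dimerizer over 4 to 24 h, -0.019 to 0.00018 for HSPA9 in Parental dimerizer over 4 to 24 h and 0 to 2 for the members called for Parental dimerizer 24 h. Further ranges were -0.38 to -0.31 for HSPA8 in Parental dimerizer 24 h minus 4 h effect, -0.037 to 0.013 for HSPA9 in Parental dimerizer 24 h minus 4 h effect, 0.10 to 0.22 for HSPA8 in Parental thapsigargin 24 h minus 4 h effect and -0.021 to 0.017 for HSPA13 in Parental arsenite over 4 to 24 h. Further ranges were -0.30 to -0.10 for HSPA1A+HSPA1B in Parental arsenite 24 h minus 4 h effect, 1 to 2 for the members higher for Dmr-PERK minus Parental, thapsigargin effect, -0.063 to 0.011 for HSPA1A+HSPA1B in Dmr-PERK minus Parental, thapsigargin effect and -0.45 to 0.15 for HSPA1L in Dmr-PERK minus Parental, thapsigargin effect. Further ranges were 2 to 4 for the members higher for Dmr-PERK minus Parental, arsenite effect, 1 to 3 for the members lower for Dmr-PERK minus Parental, arsenite effect, -0.18 to -0.10 for HSPA1A+HSPA1B in Dmr-PERK minus Parental, arsenite effect and -0.080 to 0.28 for HSPA2 in Dmr-PERK minus Parental, arsenite effect. Further ranges were -0.052 to 0.037 for HSPA14 in Dmr-PERK minus Parental, arsenite effect, -0.010 to 0.0068 for HSPA1A+HSPA1B in Dmr-PERK minus Parental untreated, -0.055 to 0.066 for HSPA1L in Dmr-PERK minus Parental untreated and -0.026 to 0.023 for HSPA14 in Dmr-PERK minus Parental untreated.

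Treated and untreated wells of the same line, time and replicate number did not deviate together (correlations -0.030 to 0.062, 0 of 72 over 0.1). No pairing by number was seen there, and wells of other pairs of groups were not compared. A replicate block gave 0 (against 1) for the members higher for Parental dimerizer over 4 to 24 h and -0.25 (against -0.25; adjusted p = 0.0553 against 0.0487) for HSPA1A+HSPA1B in Parental arsenite 24 h minus 4 h effect, and it also ended the calls of HSPA1L with dimerizer in Parental cells and of HSPA6 in untreated Dmr-PERK cells at 24 h against 0 h. It changed no other call among these results.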
